A study of Mus musculus with 6 samples.

Results

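The cytosolic ribosomal proteins were followed in mouse TgSpi1 erythroleukaemic cells, line 722, leukaemic erythroid blasts from bone marrow that overexpress the transcription factor PU.1, the product of Spi1. The members were the gene symbols made of Rpl or Rps and a number with at most a short suffix, together with Rpsa and the stalk genes Rplp0, Rplp1 and Rplp2, and symbols of pseudogenes ending in -ps and a number were left out. The rule took 87 of the 25628 symbols in the deposited count table and used no measured value. By the GENCODE annotation 82 of them are protein coding, 32 of the small and 50 of the large subunit, and 5 are pseudogenes (Rpl6l, Rps12l1, Rps3a2, Rps3a3 and Rps4l). All cells were grown with erythropoietin and held a doxycycline-inducible shRNA directed at Spi1. One group was left untreated and the other received doxycycline for 48 h, with 3 libraries of polyadenylated RNA in each, numbered 1 to 3 and called biological replicates in the labels. Nothing further says how the cultures were separated, so p-values measure the spread between these libraries. The study used 1 line, so that no value here shows how another leukaemia would respond.

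Each ribosome has a small subunit, which reads the mRNA, and a large subunit, which joins amino acids and carries a stalk of P proteins that recruits elongation factors. The proteins are made in matching amounts and placed on ribosomal RNA in the nucleolus, and most of their mRNAs start with a run of pyrimidines, the TOP motif, through which mTOR signalling and LARP1 control their translation. Erythroid precursors make protein at a high rate, and loss of a single copy of some of these genes causes Diamond-Blackfan anaemia. Mammalian genomes also hold many processed pseudogenes of ribosomal protein genes, intronless copies of their mRNAs.

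Library totals lay between 78926663 and 101276319 counts. Spi1 stood at 414.5, 353.5 and 329.6 CPM (counts scaled to a common library size) in untreated libraries 1, 2 and 3, and at 84.8, 80.4 and 62.1 CPM with doxycycline, and so fell by 2.27 on the log2 scale (SE 0.17, edgeR adjusted p = 0.0030). The 10 erythroid markers examined summed to between 1911 and 2713 CPM without and between 1959 and 3268 CPM with doxycycline, and none of them was at 3 counts or fewer in all libraries. None of the 10 passed without the block, and with it 6 rose and 1 fell, beside a median of 0.37, so that erythroid markers moved in the same fit in which members were called. Over all genes 10.3% were higher and 15.6% lower in that fit. The sum of 7 monocyte and macrophage markers lay between 6.17 and 12.4 CPM without and between 1.38 and 3.04 CPM with doxycycline, and that of 5 megakaryocyte markers between 57.0 and 291.1 and between 32.7 and 150.9 CPM. With the block 1 of these 5 megakaryocyte markers rose and 4 fell. Of 5 tested monocyte and macrophage markers, 1 fell without the block and 4 fell with it. Neutrophil markers summed to between 0.31 and 34.1 and between 0.16 and 9.24 CPM, and 1 of 5 tested fell with the block. Mast cell markers summed to between 3.69 and 62.3 and between 8.62 and 50.7 CPM, and 2 of 3 tested fell with the block. T cell markers summed to between 3.08 and 5.17 and between 4.87 and 7.37 CPM, and the 2 tested rose with the block. B cell and stromal or endothelial markers reached at most 1.70 and 0.67 CPM. The part of these cell type differences in the values below was not tested. In such bulk libraries fewer cells of a type and less RNA per cell cannot be told apart.

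Libraries with the number 2 stood apart for these genes in both groups. Of the 84 members that passed the filter on low counts, untreated library 2 was the lowest of its group for 73 and doxycycline library 2 for 75. Over all 14158 genes tested, these libraries were the lowest for 29.9% and 35% of genes. Libraries 1 and 3 shared the high values: untreated library 1 was the highest of its group for 57 members and doxycycline library 3 for 58. In a model with both terms, the replicate number differed for 66 of the 84 members, or 78.6%, against 43.3% of all genes (edgeR's quasi-likelihood test, adjusted p under 0.05). Averaged over both groups, the median member lay at 0.21, -0.43 and 0.20 on the log2 scale in numbers 1, 2 and 3 relative to the other 2 numbers, where the median over all genes lay within 0.0088 of 0. What a number stands for is not given in the labels. Libraries of equal number deviated together from their group means, so each result below is given without and with the replicate number as a block, which compares doxycycline with untreated within each number.

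**Figure D1:**
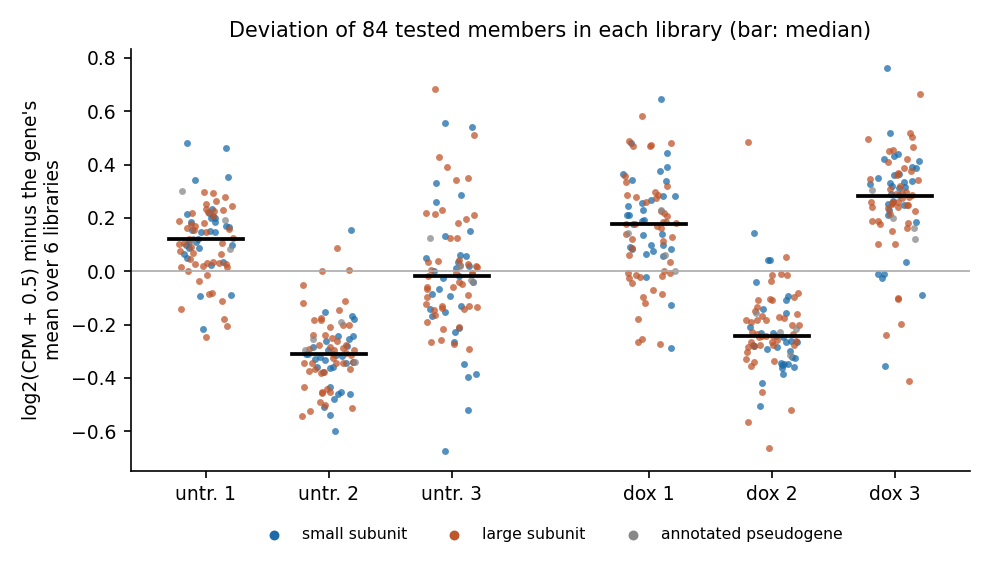
Each point is 1 of the 84 tested members, and the vertical axis gives its log2(CPM + 0.5) minus its own mean over the 6 libraries. Blue points are small subunit, orange points large subunit and grey points annotated pseudogenes, the black bar is the median, and in both groups library 2 has the lowest median.

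The members together took 4.02%, 2.95% and 3.49% of all counts in untreated libraries 1, 2 and 3, and 4.10%, 3.08% and 4.31% with doxycycline. The groups overlapped. The mean was 3.48% ± 0.54 without and 3.83% ± 0.66 with doxycycline (SD, n = 3 each). Within numbers 1, 2 and 3 the doxycycline library was higher by 0.086, 0.129 and 0.828 percentage points, so that most of the difference of 0.348 points came from number 3. It was 0.107 points without doxycycline library 3 and 0.0792 points without untreated library 2, and it rose to 0.725 points without doxycycline library 2. No test was made of this sum. The ratio of small to large subunit counts was 1.12, 1.07 and 1.004 in the untreated and 1.19, 1.05 and 1.04 in the doxycycline libraries, again with overlap.

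**Figure D2:**
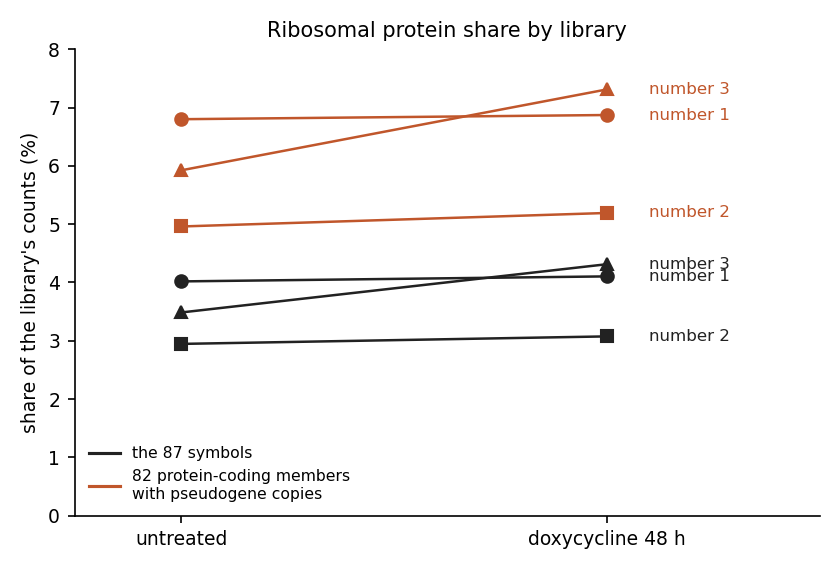
The vertical axis is the share of a library's counts in percent, and each line joins the untreated and the doxycycline library of 1 replicate number. Black lines are the 87 symbols, orange lines the 82 protein-coding members with their sequence-matched pseudogene rows, and both sets are lowest in number 2.

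Without the block no member passed the test. Of 84 members, 0 were higher and 0 lower at an adjusted p under 0.05, against 0.417% and 2.18% of all 14158 genes. At an unadjusted p under 0.05 the counts were also 0, and DESeq2 called 0 in each direction, against 2.06% of all genes higher and 5.1% lower. The median log2 fold change of the members was 0.16 and that of all genes 0.0065, and 70 of the 84 members had a positive value against 50.72% of all genes. This median was 0.028, 0.077 and 0.32 within numbers 1, 2 and 3. It was 0.033 without untreated library 2 and 0.043 without doxycycline library 3, and 0.30 without untreated library 1 and 0.29 without doxycycline library 2. For 1 of the 84 members the 2 groups were fully apart, against 20.58% of all genes.

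With the block 6 members rose and 1 fell. The background in that fit was 10.3% of all genes higher and 15.6% lower, so a smaller share of the members than of all genes was called in each direction. The members that rose were Rpl35a, Rpl22l1, Rpl22, Rpl9, Rpl23 and Rpl10, and the member that fell was Rpl15. All 7 belong to the large subunit, of which 48 members were tested, and none of the 32 tested members of the small subunit passed. Whether the subunits differ was not tested, and their median log2 fold changes lay close together, at 0.16 for the small and 0.14 for the large subunit. In all 3 numbers 31 members were higher with doxycycline, which is 36.9% against 27.98% of all genes, and 6 were lower, which is 7.14% against 29.38%. The median SE of a member was 0.22 without and 0.10 with the block, and changes well above a few percent went uncalled. With the block Rpl37, at 0.33 (SE 0.14), had an edgeR adjusted p of 0.11. Without it Rpl22l1, at 0.48 (SE 0.21), had 0.33. A member that was not called can therefore not be taken as unchanged.

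**Figure D3:**
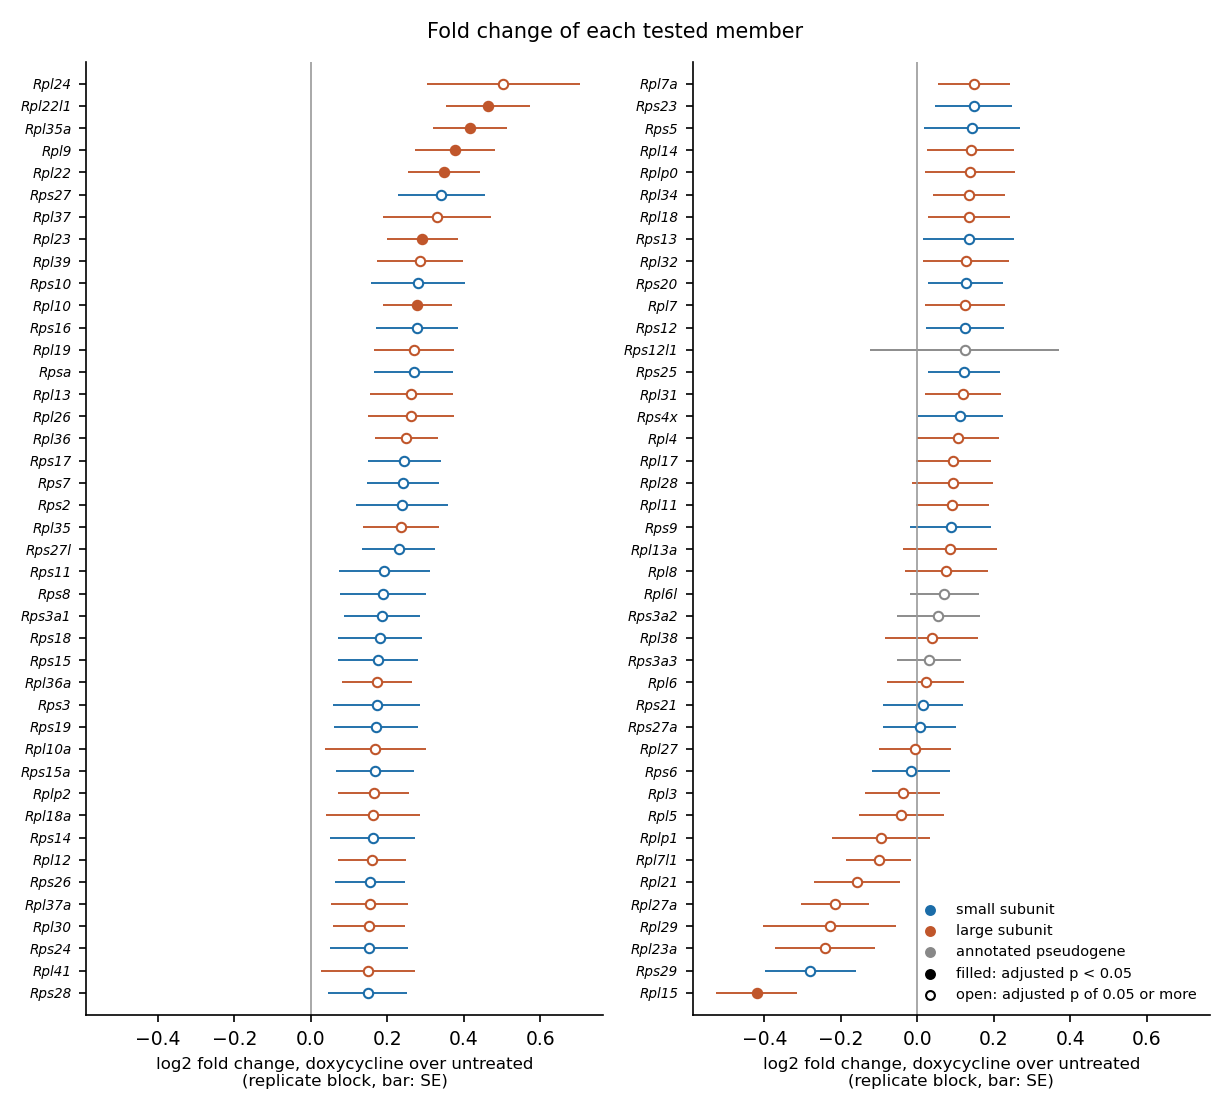
Points give the log2 fold change of each of the 84 tested members, doxycycline over untreated, in the fit with the replicate block, and bars give its SE. Filled points had an adjusted p under 0.05: 6 large subunit members to the right of 0, and Rpl15 to the left at -0.42.

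The calls with the block rested on few libraries and depended on which were in the fit. Without the libraries of number 1, 0 members rose and 0 fell, where 2.56% of all genes were higher and 6.11% lower. The median log2 fold change of the members was 0.22 there, with 76 of 84 positive, so the calls were lost without a smaller median. With all numbers it was 0.15, with 72 of 84 positive, and it was 0.17 without number 2 and 0.053 without number 3. Without number 2, 11 of 84 rose and 0 fell, where 9.21% of all genes were higher and 14.9% lower, so that the share of members that rose was there above that of all genes. In that fit Rpl15 and Rpl10 were lost and Rpl19, Rpl26, Rpl37, Rpl39, Rps16 and Rps2 were gained. Without number 3, 9 rose and 4 fell, where 14.6% of all genes were higher and 18.8% lower, the falls being those of Rpl15, Rpl27a, Rplp1 and Rps29. Over 10 fits with the block that differed in scaling, tool, pseudogene sums or the number left out, Rpl22, Rpl22l1 and Rpl35a were called in 9, Rpl10 and Rpl23 in 8, Rpl9 in 7, and Rpl15, Rpl36 and Rps27 in 6.

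Rpl35a, a large subunit protein mutated in some families with Diamond-Blackfan anaemia, had the smallest p of the 84 with the block. The gene lies on chromosome 16, plus strand, from 33056453 to 33060189 (build GRCm38). It stood at 129.0, 88.5 and 114.8 CPM in untreated libraries 1, 2 and 3 and at 189.4, 100 and 164.1 CPM with doxycycline. Library 2 was lowest in each group, and doxycycline library 2 fell below 2 of the untreated libraries. Within numbers 1, 2 and 3 the log2 difference was 0.55, 0.18 and 0.51, and the fitted value with the block was 0.42 (SE 0.098, adjusted p = 0.011). Without the block it was 0.45 (SE 0.26, adjusted p = 0.49).

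Rpl22 and its paralogue Rpl22l1 rose together with the block. Rpl22, an RNA-binding protein of the large subunit that is needed for T cell development and that holds down Rpl22l1 in other cells, lies on chromosome 4 from 152325742 to 152334071 on the plus strand. It stood at 1057, 761.4 and 979.1 CPM untreated and at 1313, 918.9 and 1346 CPM with doxycycline, where library 2 again overlapped the untreated range. The log2 fold change with the block was 0.35 (SE 0.095, adjusted p = 0.023). Rpl22l1, on chromosome 3 from 28805436 to 28807424 on the plus strand, stood at 34.9, 30.6 and 41.2 CPM untreated and at 58.1, 37.7 and 52.6 CPM with doxycycline. Its value with the block was 0.46 (SE 0.11, adjusted p = 0.012), and within numbers 1, 2 and 3 it was 0.73, 0.30 and 0.35. Both genes were thus higher with doxycycline in each of the 3 numbers, although neither passed without the block (adjusted p = 0.47 for Rpl22 and 0.33 for Rpl22l1).

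Rpl9, Rpl23 and Rpl10 also rose with the block. Rpl9, a large subunit protein on chromosome 5 from 65388364 to 65391444 on the minus strand, stood at 54.1, 40.5 and 45.8 CPM untreated and at 66.2, 47.1 and 70.5 CPM with doxycycline (log2 fold change with the block 0.38, SE 0.10, adjusted p = 0.024). Rpl23, which lies at the interface of the subunits and can bind the p53 regulator MDM2, is on chromosome 11 from 97777527 to 97782437 on the minus strand. It stood at 125.7, 109.1 and 128.0 CPM untreated and at 162.2, 117.0 and 169.6 CPM with doxycycline (0.29, SE 0.092, adjusted p = 0.042). Rpl10, an X-linked gene whose protein joins the large subunit late in its maturation, lies from 74270812 to 74273135 on the plus strand. It stood at 109.8, 73.7 and 79.4 CPM untreated and at 131.8, 98.6 and 88.3 CPM with doxycycline (0.28, SE 0.090, adjusted p = 0.045). In all 3 genes the groups overlapped and each number was higher with doxycycline. None passed without the block (adjusted p = 0.43 for Rpl9, 0.48 for Rpl23 and 0.64 for Rpl10). Summed with their sequence-matched pseudogene rows, Rpl23 stood at 0.13 with the block (SE 0.10, adjusted p = 0.36) and Rpl9 at 0.25 (SE 0.094, adjusted p = 0.076), so that neither rise was called in the sum.

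Rpl15, a large subunit protein also mutated in Diamond-Blackfan anaemia, was the member that fell. It lies on chromosome 14 from 18267823 to 18271391 on the minus strand. It stood at 103.8, 88.9 and 116.3 CPM untreated and at 78.1, 55.7 and 102.8 CPM with doxycycline. Every number was lower with doxycycline, by -0.41, -0.67 and -0.18 on the log2 scale, and the groups overlapped through doxycycline library 3. The value with the block was -0.42 (SE 0.11, adjusted p = 0.016) and that without it -0.39 (SE 0.23, adjusted p = 0.53). Its own symbol held only 34.2% of the counts of a family of Rpl15 and 5 pseudogene rows that share its sequence. Summed over that family the value was -0.015 with the block (adjusted p = 0.93), so the fall of the symbol was not seen in the sum.

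**Figure D4:**
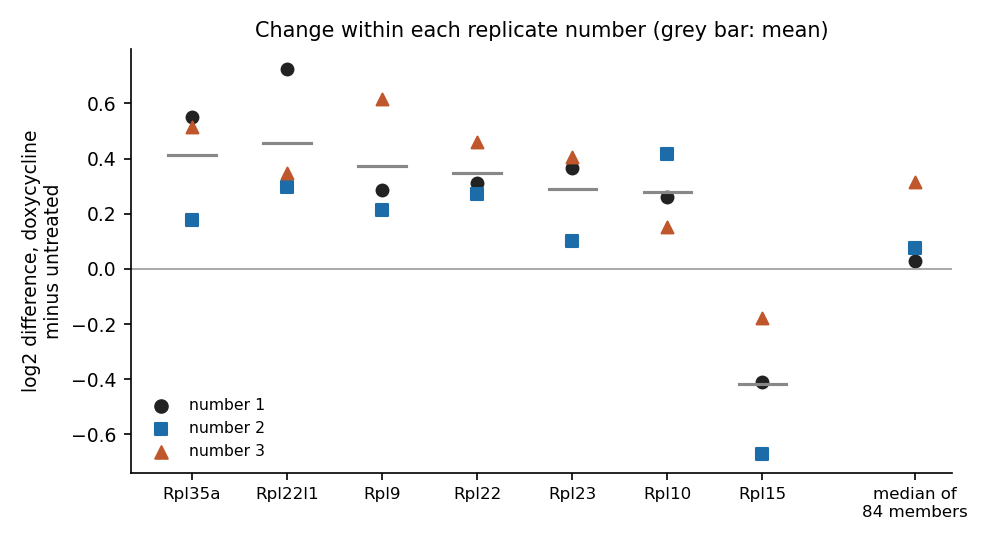
Points give the log2 difference in log2(CPM + 0.5), doxycycline minus untreated, within replicate numbers 1 (circle), 2 (square) and 3 (triangle), and grey bars their mean. The 6 members that rose are above 0 in every number and Rpl15 is below 0 in every number, while the median of the 84 members is 0.028, 0.077 and 0.32.

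The promoters of these genes are shown because PU.1 belongs to the ETS family, whose members bind a GGAA core. They are also shown because TOP mRNAs start with a pyrimidine run. Such a run, as searched for here, was found in 20.4% of all genes, so it does not by itself identify a TOP mRNA. Windows from 70 bases before to 15 bases after the RefSeq start (GRCm38.p6) are printed on the strand of the gene, with matches in capitals. Those of Rpl35a, Rpl22l1 and Rpl23, which rose, and of Rpl15, which fell, cover the range from several matches to none.
Rpl35a, chr16:33056412-33056496, plus strand: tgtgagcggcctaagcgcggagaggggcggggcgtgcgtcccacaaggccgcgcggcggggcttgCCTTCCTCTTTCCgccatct
Rpl22l1, chr3:28805438-28805522, plus strand: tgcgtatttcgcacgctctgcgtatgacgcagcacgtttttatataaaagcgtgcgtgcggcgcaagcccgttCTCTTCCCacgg
Rpl15, chr14:18270972-18271056, minus strand: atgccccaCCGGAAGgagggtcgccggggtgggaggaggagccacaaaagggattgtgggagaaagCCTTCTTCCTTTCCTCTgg
Rpl23, chr11:97782425-97782509, minus strand: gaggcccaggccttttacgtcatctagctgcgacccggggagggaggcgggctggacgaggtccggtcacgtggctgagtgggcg
In Rpl35a, Rpl22l1 and Rpl15 the capitals at the right end mark a run of C followed by at least 5 pyrimidines near the start. In Rpl35a that run also holds, on the other strand, the letters GAGGAAG, a form that PU.1 prefers. In Rpl15 the capitals at the left mark CCGGAAG, the form that GABP and ETS1 prefer. Rpl23 holds none of these. The windows of the other called members, Rpl10, Rpl22 and Rpl9, are not printed and hold none either. The RefSeq starts differ from those of the GENCODE transcripts used above. They lie 72 bases downstream in Rpl22l1, so that its whole window is inside the GENCODE transcript. In Rpl35a and Rpl10 they lie 29 and 4 bases downstream, and in Rpl15 and Rpl23 16 and 2 bases upstream. In Rpl22 and Rpl9 they lie 127 and 51 bases upstream, so those windows end before the GENCODE transcript begins. A pyrimidine run at the GENCODE start of Rpl22 or Rpl9 could therefore not be seen in them. The pyrimidine runs are near the RefSeq starts. Where a gene had several RefSeq starts, one with such a run was chosen first, so the run was part of the choice of window.

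The same letters were counted in the full RefSeq windows, from 250 bases before to 50 bases after the start. Such windows were at hand for 62 of the 82 protein-coding members. A gene with several windows counted as holding the letters if any of them did. CCGGAAG, on either strand, was found in 41.9% of the members and in 9.9% of all 27025 genes. GAGGAAG, on either strand, was found in 17.7% of the members and 15.4% of all. AAGATGGC, the form of the factor YY1, on either strand, was found in 9.7% and 3.2%, and the pyrimidine run, on the gene's strand and starting within 10 bases of the start, in 50% and 20.4%. Of the 7 members called with the block, Rpl15 alone held CCGGAAG, Rpl35a alone GAGGAAG, and Rpl35a and Rpl22 held AAGATGGC. Rpl35a, Rpl22l1 and Rpl15 held the pyrimidine run near a RefSeq start, and Rpl22, Rpl9, Rpl23 and Rpl10 did not. For Rpl22 and Rpl9 the nearest RefSeq start lies 127 and 51 bases upstream of the GENCODE start. The count therefore does not show whether these genes have a run at the GENCODE start. The median log2 fold change with the block was 0.16 for the 25 tested members with CCGGAAG and 0.15 for the 35 without it. For GAGGAAG it was 0.12 for the 11 with it and 0.16 for the 49 without it, for AAGATGGC 0.25 for the 6 with it and 0.15 for the 54 without it, and for the pyrimidine run 0.15 for the 30 with it and 0.175 for the 30 without it. A match is a description of the letters in the window and shows no binding.

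The stalk genes and the ubiquitin fusion did not pass in either fit. Rplp0, the base of the stalk, stood at 1456, 1070 and 1379 CPM untreated and at 1353, 1132 and 1868 CPM with doxycycline (log2 fold change with the block 0.14, SE 0.12). Rplp1, which pairs with Rplp2 in the stalk, stood at 1891, 1308 and 1901 CPM untreated and at 1518, 1097 and 2322 CPM with doxycycline (-0.095, SE 0.13). Its numbers went different ways, at -0.32, -0.25 and 0.29. Rplp2 stood at 510.0, 304.4 and 424.6 CPM untreated and at 517.4, 377.0 and 475.3 CPM with doxycycline (0.16, SE 0.093). Rps27a, which is made as a fusion to ubiquitin, stood at 80.1, 51.3 and 84.4 CPM untreated and at 75.1, 58.5 and 80.1 CPM with doxycycline (0.0055, SE 0.094). In all 4 genes the groups overlapped.

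Genes of inherited marrow failure and of the p53 checkpoint are part of this family. Of 18 tested members of a list for Diamond-Blackfan anaemia, 0 passed without the block, and with it Rpl35a rose and Rpl15 fell, beside a median of 0.15. These calls, 1 of 18 each way, lie below the 10.3% of all genes higher and 15.6% lower. Rps19, the gene most often mutated in that anaemia, stood at 463.6, 276.5 and 399.3 CPM untreated and at 421.9, 327.9 and 527.1 CPM with doxycycline (log2 fold change with the block 0.17, SE 0.11, adjusted p = 0.29). Rps14, whose loss on one chromosome marks the 5q- form of myelodysplastic syndrome, stood at 1237, 892.2 and 1156 CPM untreated and at 1308, 877.6 and 1556 CPM with doxycycline (0.16, SE 0.11, adjusted p = 0.31). For both, doxycycline library 3 was the highest of the 6 and library 2 the lowest of its group.

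Rpl5 and Rpl11, which bind 5S ribosomal RNA and hold MDM2 away from p53 when ribosome assembly fails, passed in neither fit under their own symbols. Rpl5 stood at 19.8, 20.8 and 28.7 CPM untreated and at 22.3, 19.0 and 25.5 CPM with doxycycline (log2 fold change with the block -0.042, SE 0.11, adjusted p = 0.81). Rpl11 stood at 64.0, 48.8 and 66.8 CPM untreated and at 60.3, 56.9 and 73.4 CPM with doxycycline (0.091, SE 0.096, adjusted p = 0.52). These symbols held a small part of the reads of their sequence. With its pseudogene row, Rpl5 stood at 1025, 824.6 and 947.5 CPM untreated and at 1171, 817.5 and 1184 CPM with doxycycline (0.17, SE 0.10, adjusted p = 0.26), and its own symbol was 2.29% of that sum. Rpl11 held 6.66% of a sum of 930.8 CPM, and that sum had a log2 fold change with the block of 0.18 (SE 0.095, adjusted p = 0.19).

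Paralogues that can replace a core protein were compared with their parents. Rps27l, a p53-responsive relative of Rps27, stood at 211.1, 147.7 and 157.0 CPM untreated and at 239.0, 155.2 and 212.8 CPM with doxycycline (log2 fold change with the block 0.23, SE 0.095, adjusted p = 0.10). Rps27 itself stood at 10.6, 8.08 and 11.8 CPM untreated and at 13.9, 9.72 and 15.3 CPM with doxycycline (0.34, SE 0.11, adjusted p = 0.052). Only 1.4% of its 50-base stretches occur in no other gene, and most are shared with the protein-coding copy Rps27rt, whose mean was 802.5 ± 149 CPM without and 875.2 ± 250 CPM with doxycycline (SD, n = 3 each; 0.098, SE 0.10, adjusted p = 0.51). Rpl7l1, a relative of Rpl7 that acts in ribosome assembly, stood at 447.5, 369.2 and 337.1 CPM untreated and at 418.2, 344.9 and 312.5 CPM with doxycycline. It was lower in each number, by -0.098, -0.098 and -0.11 on the log2 scale, and did not pass (-0.10, SE 0.084, adjusted p = 0.41). Rpl7 stood at 1175, 1022 and 1146 CPM untreated and at 1308, 966.5 and 1410 CPM with doxycycline (0.12, SE 0.10, adjusted p = 0.41).

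The remaining paralogues were at or near the lowest counts. Rpl39l had counts of 1 or 2, Rps4l of 1 or 2 and Rpl3l, the muscle form of Rpl3, of 3 to 7 in the 6 libraries, where 1 was the smallest value in the table, so none of these 3 was tested. Rps12l1, annotated as a processed pseudogene, stood at 0.66, 0.24 and 0.41 CPM untreated and at 0.60, 0.26 and 0.55 CPM with doxycycline, and Rps12 at 23.7, 19.3 and 24.3 CPM untreated and at 24.3, 21.6 and 27.4 CPM with doxycycline. With the block the log2 fold change was 0.12 for each (SE 0.25 and 0.10). The other 3 tested pseudogenes, Rps3a2, Rps3a3 and Rpl6l, had means of 765.8, 259.9 and 159.4 CPM and log2 fold changes of 0.055, 0.030 and 0.070 with the block, none of which passed.

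Levels under the members' own symbols spread widely, although the proteins are used in matching amounts. Per kilobase of transcript, Rplp1 was the highest at 3353 CPM per kb, followed by Rpl32, of the large subunit, at 2578 and Rps15, of the small subunit head, at 2556. The lowest were Rpl24 at 1.25, Rpl29 at 7.11 and Rpl5 at 11.1 CPM per kb. The length was that of 1 chosen GENCODE transcript per gene, so the order and the spread depend in part on that choice. For Rpl5 it was 2045 bases, of which 891 are coding, and for Rps20 3706 bases, of which 357 are coding. Over the 80 tested protein-coding members the 90th percentile was 65.2 times the 10th. In Rpl32 the libraries stood at 1612, 1033 and 1186 CPM untreated and at 1526, 1084 and 1557 CPM with doxycycline, and in Rps15 at 1455, 911.9 and 1239 and at 1432, 1047 and 1582 CPM. Neither gene passed in either fit, and both had their lowest value of each group in library 2.

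Many of the low symbols had sequence-matched pseudogenes in the table. Of the 80 members, 58 had at least 1 such row, defined as an annotated pseudogene elsewhere in the genome that holds at least 30% of the member's 50-base stretches and has its own count. In all, 179 pseudogene rows met this. The member's own symbol held under 10% of the summed family in 20 of the 80 and under 50% in 43. Summed with these rows, the 90th percentile was 12.9 times the 10th, the number of members under 100 CPM per kb went from 30 to 4, and the median went from 229.6 to 960.7 CPM per kb. The share of 50-base stretches found in no other gene and the level per kb under the own symbol were correlated across the 80 genes with a Spearman rho of 0.45, and rho was 0.60 for stretches of 100 bases. These are descriptions across genes, which share libraries and are not independent. With the log2 fold change of the block fit, rho was -0.095. The sources used here do not say how reads that match several genes were counted, and the own-symbol level of such a member is therefore uncertain.

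**Figure D5:**
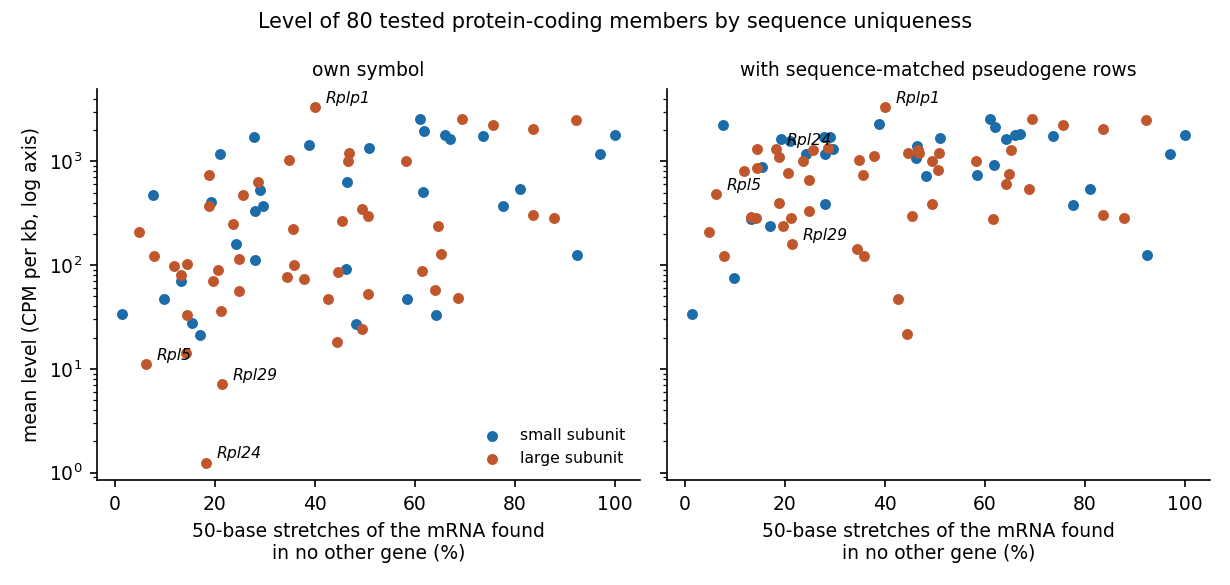
Each point is 1 of the 80 tested protein-coding members, with the share of its 50-base stretches found in no other gene (percent) on the horizontal axis and its mean level in CPM per kb on a log axis. On the left the level is that of the own symbol, where Rpl24 is lowest at 1.25, and on the right that of the symbol summed with its pseudogene rows, where it is 1320.

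Rpl24 is the clearest case. The gene, on chromosome 16 from 55966275 to 55971435 on the plus strand, encodes a large subunit protein whose mutation gives mice a white belly spot and a kinked tail. It stood at 0.74, 0.61 and 0.75 CPM untreated and at 1.04, 0.82 and 1.11 CPM with doxycycline, which are 65, 48 and 74 counts and 95, 80 and 111 counts. It was the 1 member whose groups did not overlap, and it passed in neither fit (log2 fold change with the block 0.50, SE 0.20, adjusted p = 0.091). Summed with 2 pseudogene rows the family stood at 956.4, 643.8 and 816.9 CPM untreated and at 1099, 759.1 and 1088 CPM with doxycycline, of which the own symbol was 0.095%. In that sum the groups overlapped, and the log2 fold change with the block was 0.28 (SE 0.096, adjusted p = 0.052). Rpl29, a small basic protein of the large subunit, stood at 3.76, 3.17 and 6.74 CPM untreated and at 3.28, 3.57 and 4.35 CPM with doxycycline (-0.23, SE 0.17, adjusted p = 0.37), and its high value was that of untreated library 3.

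With every family summed, 0 of 80 passed without the block, against 0.422% of all genes higher and 2.24% lower. With it 6 rose, namely Rpl10, Rpl22, Rpl22l1, Rpl35a, Rpl36 and Rps27, and Rpl23a fell, against 10.5% and 15.8% of all genes. Rps27 had no pseudogene row to add, and Rps27rt, being protein coding, was not added. Its value was 0.34 by symbol and in this fit, and its adjusted p went from 0.052 to 0.049. Rpl22 has no such pseudogene row, and in Rpl10 and Rpl35a the own symbol held 98.8% and 88.8% of the family. The Rpl10 sum left out Rpl10-ps3, which holds 92.1% of the 50-base stretches of Rpl10 but is annotated as protein coding, and which stood at 17.0 ± 4.46 and 17.8 ± 1.78 CPM (SD, n = 3 each). With all rows named as its pseudogenes added, Rpl10 stood at 0.26 with the block (SE 0.086, adjusted p = 0.0495). Rpl9-ps6, likewise annotated as protein coding, was left out of the Rpl9 sum. Rpl22l1 stood at 0.47 (SE 0.11, adjusted p = 0.0089) with the 1 pseudogene row that held the rest. Rpl23 and Rpl9, which were not called in the sum, held 9.92% and 27.1% of theirs. The rises of Rpl22, Rpl22l1, Rpl35a and Rpl10 were thus the ones called with the block both by symbol and by family.

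Rack1 and Fau, ribosomal components outside the naming rule, passed in neither fit. Rack1, a scaffold on the small subunit, had a mean of 2569 ± 439 CPM without and 2924 ± 626 CPM with doxycycline (log2 fold change with the block 0.18, SE 0.12, adjusted p = 0.32). Fau, a ubiquitin-like fusion to the small subunit protein S30, stood at 43.6 ± 9.51 and 45.3 ± 11.3 CPM (SD, n = 3 each). Small nucleolar RNAs lie in the introns of 30 members. Of these 2 rose with the block, Rpl10 and Rpl23, and the median log2 fold change of the 30 was 0.16 against 0.15 in the 50 protein-coding members without one. The share called was below the 10.3% of all genes that were higher.

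The genes that build ribosomes did not share the members' positive values. Of 88 tested genes of ribosome assembly 0 passed without the block, and with it 2 rose and 9 fell, beside a median of -0.036. Zfp622, an assembly factor released late from the large subunit, fell with the block from 43.3 ± 1.27 CPM to 33.6 ± 2.30 CPM (a log2 change of -0.37, SE 0.095, adjusted p = 0.018). Pno1, which acts in small subunit maturation, fell from 162.1 ± 7.84 CPM to 127.7 ± 18.9 CPM (SD, n = 3 each), a log2 change of -0.35 (SE 0.092, adjusted p = 0.018). Nmd3, the export adaptor of the large subunit, rose from 229.3 ± 32.4 CPM to 287.2 ± 44.4 CPM (SD, n = 3 each; 0.32, SE 0.087, adjusted p = 0.022). Of 15 tested genes of RNA polymerase I and its factors, which transcribe ribosomal RNA, 1 rose with the block, Taf1c of the promoter factor SL1 (0.51, SE 0.11, adjusted p = 0.0082), and 0 fell. Of 10 tested components of small nucleolar ribonucleoproteins, 0 passed in either fit, and the most abundant was Nolc1 with -0.34 (SE 0.13, adjusted p = 0.077). The shares called with the block over all genes were 10.3% higher and 15.6% lower.

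Other genes with TOP mRNAs, 23 of which were tested, included 18 with a positive log2 fold change without the block and 16 with it. None passed without the block, and with it 0 rose and 3 fell, beside a median of 0.076. Over all genes 10.3% were higher and 15.6% lower in that fit, so the share that fell was near that of all genes. Hnrnpa1, a splicing regulator, stood at 142.2, 177.5 and 211.6 CPM untreated and at 102.1, 109.2 and 146.2 CPM with doxycycline (log2 fold change with the block -0.57, SE 0.087, adjusted p = 0.0010). Nap1l1, a histone chaperone, stood at 364.7, 357.4 and 407.2 CPM untreated and at 310.8, 240.8 and 304.5 CPM with doxycycline (-0.41, SE 0.094, adjusted p = 0.011), and its groups did not overlap. Eif4b, a cofactor of the helicase that prepares mRNAs for initiation, stood at 1115, 1328 and 1498 CPM untreated and at 858.9, 1036 and 1263 CPM with doxycycline (-0.33, SE 0.094, adjusted p = 0.029). The elongation factor Eef1a1, by contrast, stood at 8887 ± 1037 and 9404 ± 2434 CPM (SD, n = 3 each) and did not pass in either fit.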

How the data were processed

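The deposited table holds raw counts for each gene symbol in the 6 libraries, and its smallest value is 1. Per the labels' protocols, libraries were made with the TruSeq RNA v2 kit, which does not mark the strand. Per the submitters' processing notes, the builds mm10 and GRCm38 and the tools STAR, DESeq2 and bcl2fastq 2.17.1.14 were used, in roles that are not stated. The counter is not given in the sources used here, nor are its annotation and its handling of reads matching several genes. Columns were matched to samples by name and groups came from the titles.

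Counts were tested with the quasi-likelihood test of edgeR 4.0.16 (with limma 3.58.1, in R 4.3.3), two-sided, with TMM factors, on the 14158 symbols kept by filterByExpr, with group as the only term and Benjamini-Hochberg adjustment over all of them at 0.05. CPM are on TMM-scaled library sizes. SE is the absolute log2 fold change over the root of the F statistic. A second fit added the replicate number as a block. Libraries were treated as paired by number because those of equal number deviated together from their group means (r = 0.83, 0.83 and 0.75 for numbers 1, 2 and 3 over all genes tested). Over the 84 tested members r was lower, at 0.56, 0.47 and 0.66. Without the block the common biological coefficient of variation was 28.6% on 4 residual degrees of freedom, and with it 11.3% on 2. Other alternatives were DESeq2 1.42.0, RLE factors, TMM factors without the members, no filter, 1 taken off each count, pseudogene sums and leaving out libraries. The scripts were tested on simulated data.

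Positions, lengths and pseudogenes are from the GENCODE annotation of GRCm38, and promoter sequences are from RefSeq (GRCm38.p6). No protein sequence was used here. Members named with all values were those passing without the block, the up to 6 rises and 6 falls with the smallest p and an adjusted p under 0.05 with the block at 5 CPM or more, paralogues beside their parents, the stalk genes and Rps27a, Rps19, Rps14, Rpl5 and Rpl11, and the 3 highest and 3 lowest per kilobase. Rpl36, Rpl23a, Rps29 and the members gained when a number was left out are named from their values. Beyond these, genes were taken from the lists by smallest adjusted p or, where none passed, by abundance. Rack1, Fau, Rps27rt, Eef1a1 and the pseudogenes are named for completeness. The members, lists and tests were chosen with earlier results of these data known.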

Additional observations from a re-analysis of the deposited data

How the results depend on the processing

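The replicate block was the choice that changed the calls. The count of members that rose went from 0 to 6 with the replicate block, and it was 6 with 1 taken off each count, 7 with named pseudogenes summed, 6 with sequence-matched pseudogenes summed, and 8 with DESeq2, with RLE factors or with TMM factors computed without the members, each with the block. The count that fell went from 0 to 1 with the block and was 1 in each of those fits. These counts are out of 84 members, or 80 with sequence-matched pseudogenes summed. With the block alone, 10.3% of all genes were higher and 15.6% lower. In the other fits with the block, 13986 to 14158 genes were tested, of which 1400 to 1622 rose and 1966 to 2210 fell. Leaving out a library or a pair of equal number gave between 0 and 11 members that rose and between 0 and 4 that fell. With the block, leaving out pair 3 gave 9 that rose and pair 2 gave 11, where 14.6% and 9.21% of all genes were higher. The cause was not tested. Without the block, the alternatives in normalization, tool, filter, pseudogene sums and libraries left out gave 0 in each direction. The sums over sequence-matched pseudogenes, the block with another setting and the leave-one-library values of the summed share were chosen after seeing the data.

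For 35 named genes, 783 log2 fold changes were computed under alternatives. Of these, 605 kept their direction and side of the threshold, 127 passed only under the alternative, 4 no longer passed and 47 changed sign. The 4 were Eif4ebp2 without 1 library each, and the signs turned in genes within 0.39 of 0. Rps27a, at -0.015, was 0.0055 with the replicate block, 0.0057 with DESeq2 and with RLE factors, 0.0019 with TMM factors without the members, 0.0072 with named and 0.093 with sequence-matched pseudogenes. With the block and a further change Rps27a was 0.023 (TMM factors without the members), 0.026 (RLE factors, and DESeq2), 0.030 (named pseudogenes), 0.0044 (1 taken off) and 0.081 (sequence-matched pseudogenes). Rpl5, at -0.052, was 0.13 with named and 0.18 with sequence-matched pseudogenes, and 0.13 and 0.17 with the block as well. Rpl15 was 0.0049 with sequence-matched pseudogenes and no block. Leaving out a library or pair gave Rps27a -0.21 to 0.12, Rpl5 -0.15 to 0.14, Rplp1 -0.37 to 0.18, Rps12l1 -0.19 to 0.53, Rplp0 -0.056 to 0.31, Rplp2 -0.036 to 0.35, Rpl7l1 -0.23 to 0.045, Rps19 -0.023 to 0.36, Rpl11 -0.044 to 0.19, Rpl32 -0.014 to 0.35 and Rpl29 -0.50 to 0.11. Among these, with the block and without pair 3, Rplp0 was -0.011, Rps27a 0.048, Rpl5 0.024, Rpl32 -0.0036 and Rps12l1 -0.052. Without pair 1 Rplp1 was 0.033 and Rps27a 0.071, and without pair 2 Rpl5 was 0.0056.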

Other observations

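Regulators of TOP mRNA translation included a gene that fell without the block. Of 12 tested, 0 rose and 1 fell without it, and 2 rose and 3 fell with it. Over all genes 0.417% were higher and 2.18% lower without the block, and 10.3% and 15.6% with it. Eif4ebp2, an mTOR-controlled repressor of the cap-binding factor, stood at 136.8, 169.1 and 151.7 CPM untreated and at 49.7, 60.1 and 77.6 CPM with doxycycline. The groups did not overlap, and the fitted log2 change was -1.29 (SE 0.19, adjusted p = 0.022 by edgeR). Leaving out 1 library gave values between -1.15 and -1.47 and adjusted p between 0.022 and 0.091. The call was lost without untreated replicate 1 (0.073) or 2 (0.091) and without doxycycline replicate 1 (0.082) or 2 (0.060). With the block Eif4ebp2 stood at -1.31 (SE 0.11, adjusted p = 3.1e-05).

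With the block Larp4, an mRNA-stabilising protein, fell from 377.5 ± 36.0 CPM to 242.5 ± 20.4 CPM (log2 value -0.64, SE 0.090, adjusted p = 6.3e-04; 0.059 without the block; SD, n = 3 each), and Mtor, the kinase itself, fell by 0.39 (SE 0.11, adjusted p = 0.023). Eif4ebp1, the paralogue of Eif4ebp2, rose by 0.40 (SE 0.11, adjusted p = 0.027) and Larp1b by 0.36 (SE 0.095, adjusted p = 0.020), both with the block only. Larp1, which binds the start of TOP mRNAs, stood at 416.6 ± 143 and 399.9 ± 208 CPM and did not pass in either fit. These are mRNA levels, and translation was not measured.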
